A study of Mus musculus with 2208 samples.

Results

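The chemokine receptors are a family of cell surface proteins through which immune cells sense secreted chemokines. The 8 receptor genes Cx3cr1, Ccr1, Ccr2, Ccr6, Ccrl2, Cxcr2, Cxcr4 and Cmklr1 were taken by their symbols from a table of 23951 genes, and all 8 were found. They were followed in single cells from the mouse hippocampus, sorted by 2 surface proteins of microglia and related myeloid cells, CD11b and CD45. CKp25 mice were compared with CK mice at 0, 1, 2 and 6 weeks of p25 induction, when the mice were 3 months, 3 months and 1 week, 3 months and 2 weeks, and 4 months and 2 weeks old. Each group held 3 mice, apart from CKp25 at 6 weeks with 4 mice.

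In the CK-p25 model, as background, the CK driver, a transactivator under the CaMKII promoter, is carried by both genotypes, and only CKp25 mice also carry the p25 transgene. p25 is a truncated activator of the kinase Cdk5. It is made in forebrain neurons and not in the sorted cells, so the receptor genes were read in cells that surround the neurons that carry the transgene. The CK mice are littermates, and the 0-week mice of both genotypes had no induced p25. Age rose with the weeks in both genotypes, so a change over weeks within 1 genotype cannot be told apart from age.

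Chemokine receptors are proteins with 7 membrane-spanning helices that pass their signal to inhibitory G proteins, which turn on phosphoinositide 3-kinase and small GTPases and steer cell movement. Cx3cr1, the receptor for the neuronal chemokine fractalkine, is a defining gene of microglia in the brain, whereas Ccr2 marks monocytes and Cxcr2 is best known from neutrophils. Ccrl2 is an atypical receptor that does not signal through G proteins and is known to bind chemerin and present it to Cmklr1, the signalling chemerin receptor.

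Levels are in FPKM, sequenced fragments scaled to transcript length and to the mapped fragments of the well. A well of a plate, meant to hold 1 cell, was kept when 1000 or more of its genes reached an FPKM of 1. The well numbered first for each mouse was left out, since 19 of these 25 wells held over 8000 genes. This kept 2003 of 2208 wells (90.7%), 40 to 95 per mouse, and the median number of genes per kept well of a mouse lay between 1537 and 2992. The microglial markers Tmem119 and P2ry12 were found in 99.4% and 97.8% of kept wells, and the sort markers Itgam and Ptprc in 90.8% and 80.5%. Among genes of other blood cells, S100a8, Cd3e, Nkg7 and Gzma were in 0 wells and S100a9 in 1 well. Other genes of the same lists were found more often, with Cd3d of T cells in 111 wells (5.54%), Xcr1 of dendritic cells in 145 (7.24%), Cd79b of B cells in 181 (9.04%) and Csf3r of neutrophils in 1702 (85.0%). At least 3 markers of another cell type were found in 41 wells. A gene counted as found in a well at FPKM of 1 or more. The depth behind a single value is unknown, and a gene listed at 0 may have been missed, since Gapdh, which nearly every cell uses, was at 0 in 19.6% of kept wells.

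The 8 genes fell into a widespread and a rare set when all 2003 wells were read together. Cx3cr1 was found in 1997 wells (99.7%), Cxcr2 in 1059 (52.9%), Cmklr1 in 1040 (51.9%) and Ccrl2 in 544 (27.2%). Ccr2, the CCL2 receptor of monocytes, was found in 136 wells (6.79%), and Ccr1, a receptor for CCL3 and CCL5, in 122 (6.09%). Cxcr4, the CXCL12 receptor, was found in 36 wells (1.80%), and Ccr6, the CCL20 receptor, in 31 (1.55%). In the wells that held it, the median level was 908.5 FPKM for Cx3cr1, 98.3 for Ccr1, 98.0 for Ccrl2, 81.9 for Ccr6, 22.4 for Cmklr1, 18.3 for Cxcr4, 11.2 for Cxcr2 and 8.27 for Ccr2. Ccr1 and Ccr6 were thus found in few wells but there at a level near that of Ccrl2, and Cxcr2 was found in many wells at a low level. A kept well held on average 2.23 to 2.73 of the 8 genes in each of the 8 groups.

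Read as mean FPKM, which is per length and can be compared between genes, Cx3cr1 ranked first in all 8 groups, and its mice never overlapped those of the next gene. Ccrl2 ranked second in 7 groups. In CK mice at 1 week Cmklr1 came before it, at 26.0 ± 8.76 against 22.4 ± 3.82 FPKM (SD, n = 3), with mice that overlapped. In CKp25 mice at 2 and 6 weeks Ccrl2 stood clear of the third gene, Cmklr1, at 124.7 ± 58.2 against 10.5 ± 4.18 FPKM (SD, n = 3) at 2 weeks and 93.4 ± 43.6 against 11.98 ± 4.04 FPKM (SD, n = 4) at 6 weeks. In the other 6 groups Ccrl2 and Cmklr1 were neighbours in the order, and their mice overlapped. Among the lower genes, the mice of neighbours in the order overlapped, apart from Cmklr1 above Cxcr2 in CKp25 mice at 0 and 2 weeks and Cxcr2 above Ccr2 in CK mice at 0 and 1 weeks.

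CKp25 was compared with CK on mouse profiles, in which the profile is the mean over kept wells of log2(FPKM + 1) and a difference is CKp25 minus CK ± its standard error from limma. Of the 8 genes, 6 passed the filter on low values and were tested. Ccr6 and Cxcr4 did not, since neither reached 10% of wells in any mouse (0 mice). At 0 weeks no receptor gene (0 of 6) and no gene in all (0 of 9162, 0.0%) passed limma at an adjusted p of 0.05, with 0 of the 6 and 1.17% of all genes at an unadjusted p under 0.05. At 1 week 1 of 6 was lower in CKp25 mice, Cxcr2, against 0.371% of all genes, and 0 were higher, against 3.57%. At 2 weeks Ccrl2 was higher, against 6.0% of all genes, and Cx3cr1 was lower, against 2.23%. At 6 weeks Ccrl2 was higher, against 4.42% of all genes, and 0 were lower, against 1.36%. The other 3 tested genes, Cmklr1, Ccr1 and Ccr2, passed at no week.

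**Figure D1:**
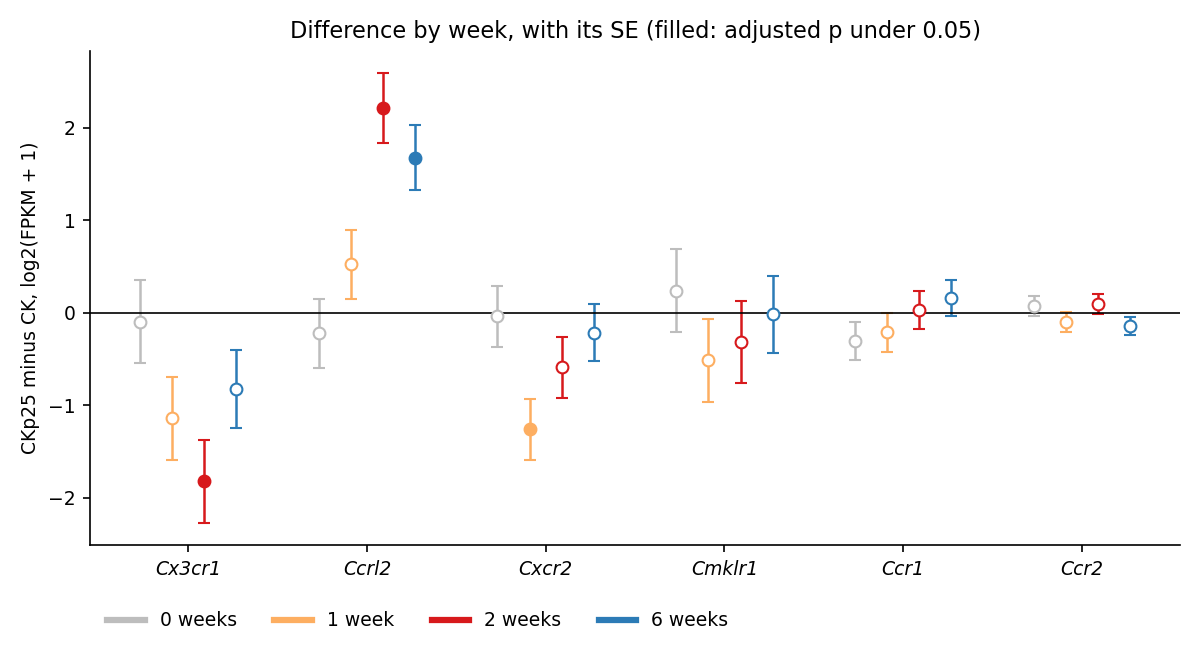
Difference between CKp25 and CK mice (y axis, CKp25 minus CK in mean log2(FPKM + 1), with its standard error from limma) for the 6 tested receptor genes (x axis) at 0, 1, 2 and 6 weeks (colours). Filled points passed an adjusted p of 0.05: Cxcr2 at 1 week (-1.26), Cx3cr1 at 2 weeks (-1.82) and Ccrl2 at 2 weeks (2.21) and 6 weeks (1.68).

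The start regions of the 3 called genes are shown to give their letters beside these results, as the 250 bases before an annotated start (RefSeq, build GRCm38.p6, whereas the expression table uses mm9). The Ccrl2 window is that of the start furthest upstream, on the minus strand at chr9:111057519-111057768. Cx3cr1 lies on the minus strand at chr9:120068297-120068546 and Cxcr2 on the plus strand at chr1:74153744-74153993. RefSeq has 3 Ccrl2 windows, and the other 2 held no match. Capitals mark matches to a loose kappaB-type motif, GGGNNNNNCC on either strand, which was picked after the sequences were seen.
Ccrl2: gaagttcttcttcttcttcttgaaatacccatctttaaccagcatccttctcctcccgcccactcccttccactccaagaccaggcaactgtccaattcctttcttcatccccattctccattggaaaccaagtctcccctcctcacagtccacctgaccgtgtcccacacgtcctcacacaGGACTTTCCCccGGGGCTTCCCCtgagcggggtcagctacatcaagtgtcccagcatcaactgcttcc
Cx3cr1: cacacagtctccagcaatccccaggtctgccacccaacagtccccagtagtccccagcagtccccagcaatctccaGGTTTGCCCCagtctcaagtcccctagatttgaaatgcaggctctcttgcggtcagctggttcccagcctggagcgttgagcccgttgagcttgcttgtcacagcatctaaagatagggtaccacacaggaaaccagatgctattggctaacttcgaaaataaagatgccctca
Cxcr2: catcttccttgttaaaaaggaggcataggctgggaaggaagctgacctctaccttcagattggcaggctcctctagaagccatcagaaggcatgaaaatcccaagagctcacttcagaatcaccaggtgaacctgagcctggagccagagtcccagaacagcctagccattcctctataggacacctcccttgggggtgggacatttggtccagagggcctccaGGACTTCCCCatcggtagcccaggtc

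In the Ccrl2 window the matches were GGACTTTCCC, 68 to 59 bases before the start, and the overlapping GGGGCTTCCC and GGGCTTCCCC, which together span 56 to 46 bases before it. The Cx3cr1 window held GGTTTGCCCC, 174 to 165 bases before the start, and the Cxcr2 window GGACTTCCCC, 26 to 17 bases before it. At least 1 match was found in 45.8% of 32851 RefSeq windows of this length and in 6 of the 11 windows of the 8 receptor genes. A motif of interferon response elements, GAAANNGAAA, was in 2.98% of all windows, and one of the myeloid factor PU.1, GAGGAAGT, in 2.44%, on either strand. Neither was in any of the 11 windows (0). These matches describe the letters of the windows.

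Cx3cr1, the fractalkine receptor, fell in CKp25 mice at 2 weeks while it was still found in almost every well. At 0 weeks its mean was 1196, 871.5 and 1310 FPKM in CKp25 mice 1 to 3, and 1192, 1242 and 1224 FPKM in CK mice 1 to 3. The groups overlapped, and the difference of profiles was -0.10 ± 0.45 (limma, adjusted p = 1.00). At 1 week the means were 1132, 625.6 and 909.7 FPKM in CKp25 mice and 2232, 1328 and 1680 FPKM in CK mice. Every CKp25 mouse lay below every CK mouse, as for 8.14% of all genes in that direction, but the difference of -1.14 ± 0.45 did not pass (limma, adjusted p = 0.164). It passed with at least 2000 genes per well (-1.22, limma, adjusted p = 0.0448).

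At 2 weeks Cx3cr1 stood at 411.7, 403.0 and 402.2 FPKM in CKp25 mice and at 1307, 1514 and 972.3 FPKM in CK mice. The 3 CKp25 mice lay close together and all below the lowest CK mouse, as for 11.2% of all genes in that direction. The difference of profiles was -1.82 ± 0.45 (limma, adjusted p = 0.00543, lower in 3 of 3 CKp25 mice). It kept its direction with each mouse left out in turn, between -2.04 and -1.66, with an adjusted p of at most 0.0355. The call was lost when wells of any number of genes were used (-2.02, limma, adjusted p = 0.143). Cx3cr1 was found in 99.65% ± 0.606 of wells in CKp25 mice and 99.63% ± 0.635 in CK mice at 2 weeks (SD, n = 3), so the difference lay in the level within wells. The median level in the wells that held it was 358.6 FPKM in CKp25 and 1196 FPKM in CK wells. Within ranges of genes per well, the mean log2(FPKM + 1) of Cx3cr1 at 2 weeks was 7.47 in CKp25 and 9.24 in CK wells with 1000 to 2000 genes, 8.49 and 10.2 with 2000 to 3000 genes, and 8.57 and 10.4 with 3000 or more.

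At 6 weeks Cx3cr1 stood at 684.7, 525.0, 382.5 and 574.5 FPKM in CKp25 mice 1 to 4 and at 647.9, 971.2 and 1054 FPKM in CK mice 1 to 3. As mean FPKM the groups overlapped, and as profiles they did not, as for 5.85% of all genes in that direction. The difference of -0.82 ± 0.42 did not pass (limma, adjusted p = 0.34). Quantile normalization of the profiles gave -1.81 with an adjusted p of 7.56e-05 (limma). Within CKp25 mice the profile at 2 weeks fell by 1.64 ± 0.45 against that at 0 weeks (limma, adjusted p = 0.01003), where 1.38% of all genes fell. The 6-week profile differed from that at 0 weeks by -1.27 ± 0.42 (limma, adjusted p = 0.0564), where 2.3% of all genes fell. No change of the genotype difference between successive weeks passed for Cx3cr1 (limma, adjusted p = 0.673, 0.895 and 0.953 for 1 minus 0, 2 minus 1 and 6 minus 2 weeks).

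Other genes of resting microglia had lower sums in the CKp25 mice at the same weeks. The summed log2(FPKM + 1) of 7 such genes, Tmem119, P2ry12, Sall1, Olfml3, Fcrls, Siglech and Gpr34, ranged over mice from 60.2 to 64.8 in CKp25 and from 67.7 to 71.8 in CK at 1 week. It ranged from 52.2 to 55.6 in CKp25 and from 62.2 to 68.7 in CK at 2 weeks, and from 45.5 to 53.7 in CKp25 and from 57.9 to 62.4 in CK at 6 weeks. None of the 7 genes was at 0 in a group, and the part of these genes in the Cx3cr1 result was not tested.

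**Figure D2:**
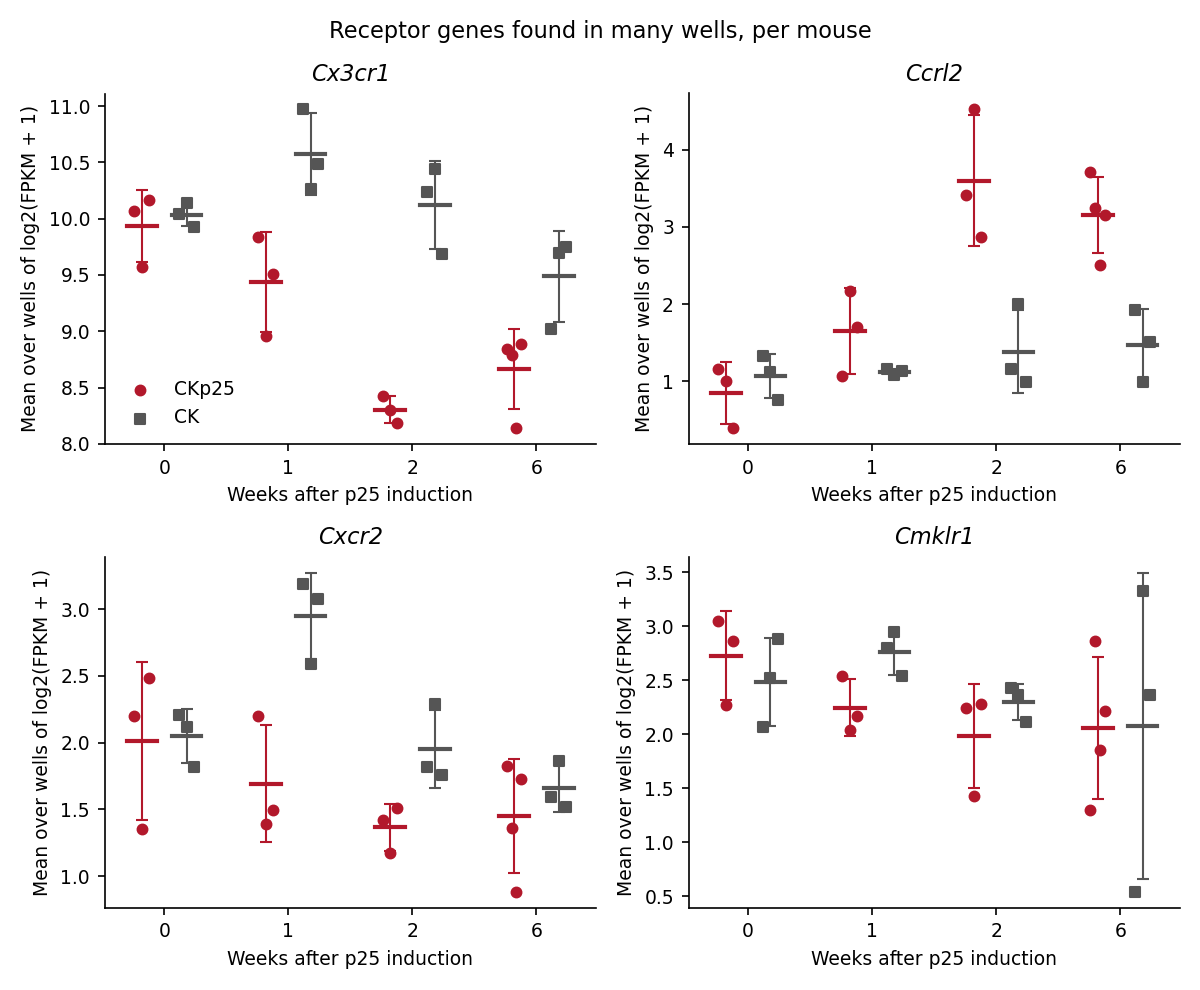
Mean over kept wells of log2(FPKM + 1) (y axis) at 0, 1, 2 and 6 weeks (x axis) for Cx3cr1, Ccrl2, Cxcr2 and Cmklr1, with 1 point per mouse (CKp25 red circles on the left, CK gray squares on the right), the group mean as a bar and the SD as a whisker. At 2 weeks the CKp25 mice lie between 8.18 and 8.43 for Cx3cr1, below the CK mice, and between 2.86 and 4.52 for Ccrl2, above the CK mice.

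Ccrl2, the atypical chemerin-binding receptor, rose in CKp25 mice at 2 and 6 weeks, and the rise lay mostly in the number of wells with the gene. At 0 weeks it was found in 16.9%, 15.7% and 7.06% of wells in CKp25 mice and in 20.2%, 17.9% and 11.5% in CK mice, which overlapped. At 1 week the shares were 17.6%, 35.6% and 25% in CKp25 mice and 19.3%, 18.1% and 16.3% in CK mice, which also overlapped. The difference of profiles was -0.22 ± 0.38 at 0 weeks and 0.52 ± 0.38 at 1 week (limma, adjusted p = 1.00 and 0.52).

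At 2 weeks the shares with Ccrl2 were 52.7%, 63.2% and 41.8% in CKp25 mice and 17.9%, 30.5% and 16.5% in CK mice. The lowest CKp25 mouse lay above the highest CK mouse, as for 13.2% of all genes in that direction in their profiles. The profile was higher by 2.21 ± 0.38 (limma, adjusted p = 4.72e-05, higher in 3 of 3 CKp25 mice), and between 1.75 and 2.58 with each mouse left out. At 6 weeks the shares were 52.5%, 51.8%, 45.1% and 47.5% in CKp25 mice and 25.6%, 17.4% and 22.2% in CK mice. Again the groups did not overlap in share or in profile, as for 6.48% of all genes in that direction in their profiles. As mean FPKM they overlapped, at 124.7, 119.6, 30.21 and 99.26 FPKM in CKp25 mice 1 to 4 and 80.0, 13.19 and 44.22 FPKM in CK mice 1 to 3. The profile was higher by 1.68 ± 0.35 (limma, adjusted p = 0.00106, higher in 4 of 4 CKp25 mice).

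In the wells that held Ccrl2, its median level in a mouse lay in a like range in both genotypes. It averaged 122.1 ± 27.2 FPKM in CKp25 and 83.7 ± 11.1 FPKM in CK mice at 2 weeks (SD, n = 3), and 98.9 ± 35.0 FPKM in CKp25 (SD, n = 4) and 106.2 ± 54.5 FPKM in CK mice (SD, n = 3) at 6 weeks. These levels were not tested. With the log2 taken of a mouse's mean FPKM in place of the mean of log2 values, neither call passed, at 1.96 (limma, adjusted p = 0.101) at 2 weeks and 1.15 (adjusted p = 0.34) at 6 weeks. The 6-week call was also lost when wells of any number of genes were used (1.196, limma, adjusted p = 0.0934).

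Against their own 0-week mice, CKp25 mice were higher in Ccrl2 by 2.75 ± 0.38 at 2 weeks and by 2.31 ± 0.35 at 6 weeks (limma, adjusted p = 7.04e-07 and 6.80e-06), where 11.3% and 4.64% of all genes rose. At 1 week the difference was 0.80 ± 0.38 (limma, unadjusted p = 0.0402, adjusted p = 0.188). No receptor gene (0 of 6) was called between 1 and 0 weeks in CKp25 mice, where 9.28% of all genes were called. In CK mice the same differences were 0.32 ± 0.38 and 0.40 ± 0.38 (limma, adjusted p = 0.828 and 1.0), and 0.0% of all genes were called. The genotype difference at 2 weeks was 1.69 ± 0.53 larger than at 1 week, which did not pass (limma, unadjusted p = 0.00288, adjusted p = 0.131).

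Since wells with Ccrl2 held more genes than those without it in the CKp25 mice, the genotypes were set against each other within ranges of genes per well. At 2 weeks the gene was found in 7 of 51 CKp25 wells (13.7%) and 3 of 41 CK wells (7.32%) with 1000 to 2000 genes. It was found in 56 of 101 CKp25 wells (55.4%) and 38 of 171 CK wells (22.2%) with 2000 to 3000 genes, and in 74 of 103 (71.8%) and 20 of 69 (29.0%) with 3000 or more. At 6 weeks the shares with 2000 to 3000 genes were 58 of 111 (52.3%) in CKp25 and 19 of 96 (19.8%) in CK wells. Mouse medians of genes per well averaged 2823 ± 260.3 in CKp25 and 2570 ± 291.6 in CK mice at 2 weeks (SD, n = 3). These shares pool wells of several mice and carry no test. In a fit of wells with at least 2000 genes Ccrl2 was higher by 2.76 ± 0.45 at 2 weeks and by 2.55 ± 0.42 at 6 weeks (limma, adjusted p = 5.22e-05 and 5.41e-05).

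**Figure D3:**
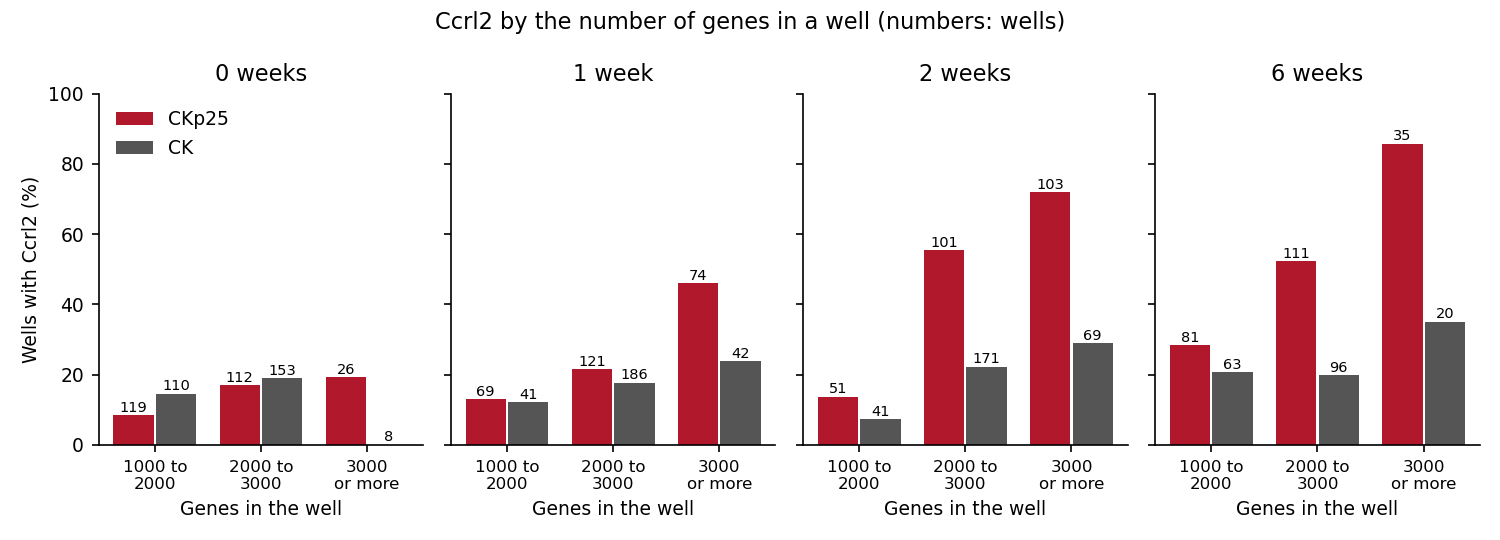
Share of kept wells with Ccrl2 at FPKM of 1 or more (y axis, percent) by the number of genes in the well (x axis) at 0, 1, 2 and 6 weeks, for CKp25 (red, left) and CK (gray, right), with the number of wells above each bar. At 2 weeks the CKp25 bar is the higher of each pair, at 71.8% against 29.0% in wells with 3000 or more genes.

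The sums of some markers of other cells differed beside Ccrl2. The summed log2(FPKM + 1) of 6 monocyte genes (Ccr2 left out) ranged over mice from 1.06 to 1.18 in CKp25 and from 0.0400 to 0.372 in CK at 2 weeks, and from 0.270 to 1.38 in CKp25 and from 0.1995 to 0.317 in CK at 6 weeks. Plac8 made up much of it at 2 weeks, in 13.3% ± 0.399 of CKp25 and 0.717% ± 0.622 of CK wells (SD, n = 3), while Chil3 and F13a1 were in 0 CKp25 wells and no well of either genotype held 3 or more of the 6 (0). The sum of 6 genes of border-associated macrophages ranged from 0.373 to 0.618 in CKp25 and from 0.160 to 1.61 in CK at 2 weeks, and from 1.52 to 2.01 in CKp25 and from 0.341 to 1.13 in CK at 6 weeks. Wells with 3 or more markers of a type other than microglia were then left out, a setting chosen after the data were seen. The Ccrl2 difference was 2.21 ± 0.38 at 2 weeks and 1.72 ± 0.36 at 6 weeks without them (limma, adjusted p = 6.50e-05 and 0.00102). At 2 weeks the CKp25 wells left out were 4 of 255, all by astrocyte genes. No well of either genotype was left out for its monocyte genes at 2 or 6 weeks (0). This setting therefore cannot show what the wells with Plac8 add to the Ccrl2 difference, which was not tested.

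Ccrl2 rose and Cx3cr1 fell at 2 weeks, and within the CKp25 mice of 2 weeks the wells with Ccrl2 were not lower in Cx3cr1 on average. At 1 and 6 weeks the direction differed. In CKp25 mice at 2 weeks the mean log2(FPKM + 1) of Cx3cr1 in wells with and without Ccrl2 was 8.47 and 8.38 in mouse 1, 8.44 and 8.07 in mouse 2, and 8.21 and 8.16 in mouse 3. It was higher with Ccrl2 in 3 of 3 mice. At 1 week it was lower with Ccrl2 in 3 of 3 CKp25 mice, with differences of -0.24, -0.67 and -0.44, and at 6 weeks the 4 CKp25 mice were split, at -0.12, -0.17, 0.58 and 0.14. These within-mouse differences are given without a test. Wells with Ccrl2 also held more genes, with a median of 2608 against 2270 in wells without it over all mice. In CKp25 mice 1 to 3 at 2 weeks the medians were 2830, 3079.5 and 3451.5 with Ccrl2 and 2193, 2656 and 2565 without it. Cx3cr1 in CKp25 wells of 2 weeks itself went from 7.47 with 1000 to 2000 genes to 8.57 with 3000 or more. The wells with and without Ccrl2 were not compared within ranges of genes, and the part of genes per well was not tested.

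Cxcr2, a receptor for CXCL1, CXCL2 and other neutrophil-attracting chemokines, was lower in CKp25 than in CK mice at 1 week. It was found in 57.6%, 44.8% and 39.1% of wells in CKp25 mice and in 79.5%, 71.3% and 77.2% in CK mice. The highest CKp25 mouse lay below the lowest CK mouse in share and in profile, as for 8.14% of all genes in that direction in their profiles. The difference of profiles was -1.26 ± 0.33 (limma, adjusted p = 0.0189, lower in 3 of 3 CKp25 mice).

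The 1-week call of Cxcr2 did not hold with each mouse left out. Without CK mouse 1, CK mouse 3, CKp25 mouse 2 or CKp25 mouse 3 the difference was -1.14, -1.195, -1.11 and -1.16, and the adjusted p was 0.110, 0.0768, 0.154 and 0.06004 (limma). It also did not pass with at least 2000 genes per well (-0.99, adjusted p = 0.107), with the log2 of mean FPKM (-0.89, adjusted p = 0.458) or in a fit of the 1-week mice alone (-1.26, adjusted p = 0.108). CK mice at 1 week stood higher than CK mice at 0 weeks by 0.90 ± 0.33, which did not pass (limma, unadjusted p = 0.00956, adjusted p = 0.35), while CKp25 mice differed from their 0-week mice by -0.32 ± 0.33 (limma, adjusted p = 0.614). The genotype difference at 1 week minus that at 0 weeks was -1.22 ± 0.47 (limma, adjusted p = 0.356). Within ranges of genes per well, Cxcr2 was found at 1 week in 20.3% of CKp25 and 63.4% of CK wells with 1000 to 2000 genes, in 51.2% and 76.9% with 2000 to 3000, and in 64.9% and 83.3% with 3000 or more.

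At the other weeks Cxcr2 was not called. The shares averaged 52.7% ± 14.8 in CKp25 and 54.3% ± 0.798 in CK mice at 0 weeks, 43.0% ± 12.4 and 57.2% ± 8.81 at 2 weeks (SD, n = 3), and 42.0% ± 11.98 in CKp25 (SD, n = 4) and 45.4% ± 7.57 in CK mice (SD, n = 3) at 6 weeks. At 2 weeks the profiles of the CKp25 mice lay below those of the CK mice, as for 11.2% of all genes, with a difference of -0.59 ± 0.33 that did not pass (limma, adjusted p = 0.331). Most defining genes of neutrophils were at or near 0 while Cxcr2 was widespread. S100a8 was in 0 and S100a9, Retnlg and Mmp8 were in 1, 1 and 3 of 2003 wells, whereas Csf3r, the receptor of a granulocyte growth factor, was in 85.0%. The summed log2(FPKM + 1) of these 5 genes, nearly all of it Csf3r, ranged over mice from 4.25 to 5.03 in CKp25 and from 5.10 to 5.64 in CK at 1 week, and its part in the Cxcr2 result was not tested. Of the 1059 wells with Cxcr2, 99.4% held Tmem119 and 98.8% held P2ry12.

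Cmklr1, the signalling chemerin receptor, passed the test at no week, and its mice overlapped between genotypes at all 4 weeks. It was in 55.1% ± 8.31 of wells in CKp25 and 51.4% ± 6.88 in CK mice at 0 weeks, in 50.9% ± 4.55 and 58.2% ± 7.81 at 1 week, and in 49.2% ± 10.4 and 53.7% ± 4.22 at 2 weeks (SD, n = 3). At 6 weeks the mice spread widely, with 27.5%, 67.9%, 43.1% and 50% in CKp25 and 11.6%, 67.4% and 52.2% in CK mice. CK mouse 1, with 11.6%, also had the fewest genes per well, a median of 1537 against 2310.5 and 2449.5 in CK mice 2 and 3. The differences of profiles were 0.24 ± 0.45, -0.51 ± 0.45, -0.32 ± 0.45 and -0.02 ± 0.42 at 0, 1, 2 and 6 weeks (limma, adjusted p = 1.00, 0.613, 0.756 and 0.992).

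Ccr1 and Ccr2, receptors of inflammatory CC chemokines that lie close together with related genes on chromosome 9, were rare in both genotypes. The genes of this cluster are alike in sequence, so reads may have been split between them, and their values are uncertain. Ccr1 was found in 4.49%, 2.41% and 5.88% of wells in CKp25 and 7.87%, 10.5% and 4.60% in CK mice at 0 weeks. In shares these mice overlapped, and in profiles the CKp25 mice all lay below the CK mice, as for 2.54% of all genes, with a difference of -0.31 ± 0.21 (limma, adjusted p = 1.00). The share then averaged 7.50% ± 3.45 in CKp25 and 9.77% ± 8.22 in CK mice at 1 week, and 6.08% ± 3.91 and 4.93% ± 5.78 at 2 weeks (SD, n = 3). At 6 weeks it was 2.50%, 5.36%, 9.80% and 2.50% in CKp25 and 2.33%, 2.17% and 1.11% in CK mice, so that every CKp25 mouse lay above every CK mouse in share. In profiles 6.48% of the tested genes lay apart in that direction at 6 weeks. The shares stand for 11 of 227 CKp25 wells and 3 of 179 CK wells, and the exact permutation test over mice, 2-sided, gave p = 0.0571, the smallest it can give for 4 against 3 mice (0.61 after adjustment over 32 tests). As profiles the CKp25 and CK mice overlapped at 6 weeks, and the difference was 0.16 ± 0.19 (limma, adjusted p = 0.767).

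Wells with Ccr1 more often held Mrc1, Cd163 and Pf4 from the list of border-associated macrophages. Lyve1, F13a1 and Ms4a7 of that list are not given for these wells. Of 122 wells with Ccr1, 16.4% held Mrc1, 14.8% Cd163 and 9.02% Pf4, against 3.83%, 4.89% and 1.44% of 1881 wells without Ccr1. Their median number of genes was 2482.5 and 2352 in wells with and without Ccr1. Tmem119 was in 99.2% of the wells with Ccr1 and 99.4% of those without it. Of 136 wells with Ccr2, 1.47% held Ly6c2 and 3.68% Plac8, against 0.482% and 2.30% of 1867 wells without it, and all 136 held Tmem119. The other monocyte genes are not given for the wells with Ccr2. Such shares pool wells of all 8 groups, so they mix differences between groups with those between wells. They are descriptions and carry no test.

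Ccr2 was found in 6.64% ± 2.52 of wells in CKp25 and 4.04% ± 1.58 in CK mice at 0 weeks, 6.15% ± 3.90 and 10.2% ± 7.85 at 1 week, and 8.16% ± 0.612 and 5.75% ± 3.92 at 2 weeks (SD, n = 3). At 6 weeks it was found in 4.998% ± 3.39 of wells in CKp25 (SD, n = 4) and 7.82% ± 0.860 in CK mice (SD, n = 3). The groups overlapped at all 4 weeks in share, and the differences of profiles lay between -0.15 and 0.10 (limma, adjusted p = 0.534 to 1.00). The highest share of any mouse, 19.1%, was that of CK mouse 2 at 1 week, with 18 of 94 wells.

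**Figure D4:**
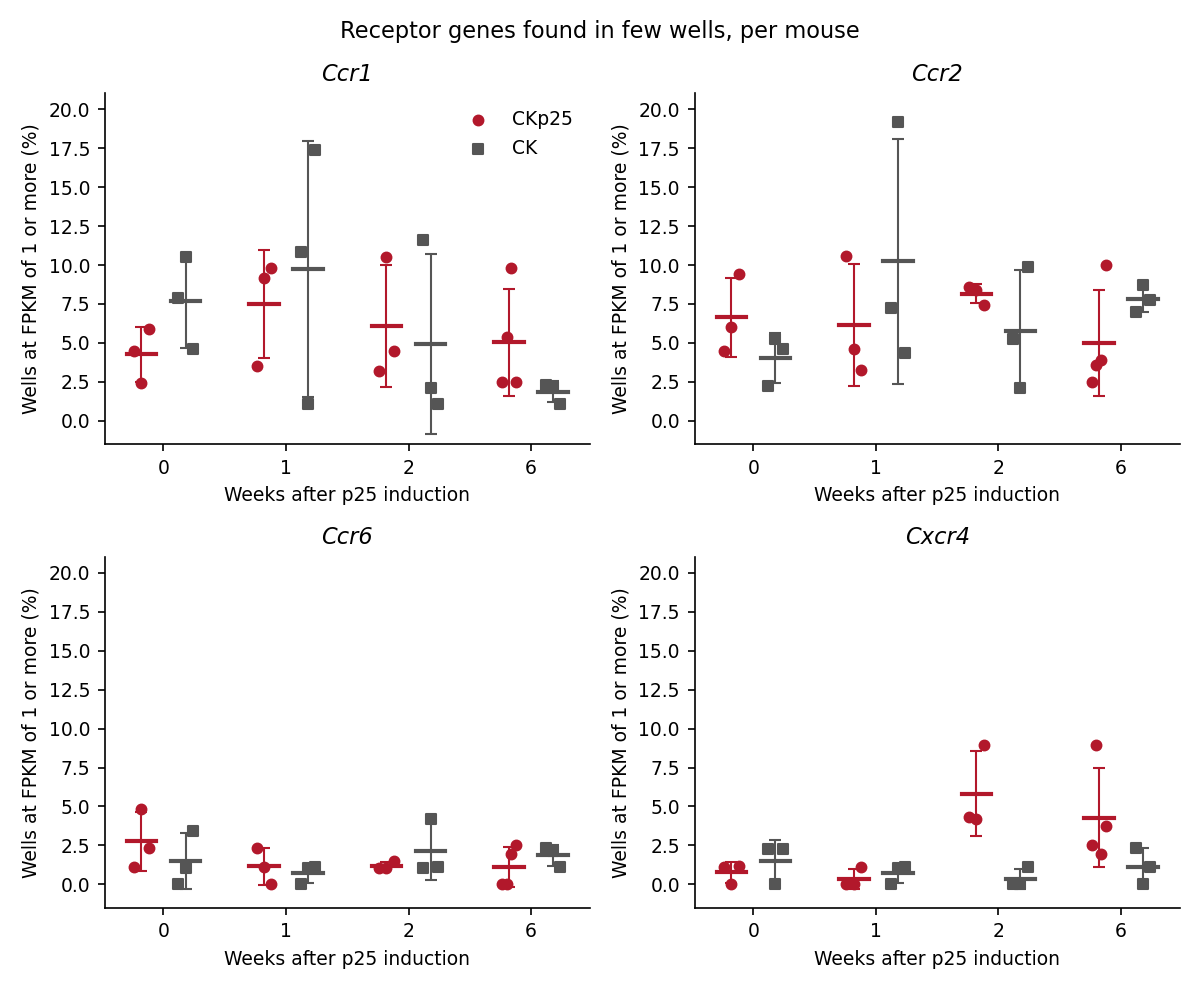
Share of kept wells with Ccr1, Ccr2, Ccr6 or Cxcr4 at FPKM of 1 or more (y axis, percent) at 0, 1, 2 and 6 weeks (x axis), with 1 point per mouse (CKp25 red circles on the left, CK gray squares on the right), the mean as a bar and the SD as a whisker. Cxcr4 lies between 4.21% and 8.96% in CKp25 mice at 2 weeks, above the CK mice, and no mouse exceeds 4.82% for Ccr6.

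Cxcr4, the CXCL12 receptor, was found in 2 CKp25 and 4 CK wells at 0 weeks and in 1 CKp25 and 2 CK wells at 1 week. At 2 and 6 weeks it was found in more CKp25 wells. It was found in 4, 4 and 6 wells (4.30%, 4.21% and 8.96%) in CKp25 mice 1 to 3 at 2 weeks, and in 0, 0 and 1 well (0.0%, 0.0% and 1.10%) in CK mice. At 6 weeks it was in 1, 5, 1 and 3 wells (2.50%, 8.93%, 1.96% and 3.75%) in CKp25 and in 1, 0 and 1 well (2.33%, 0.0% and 1.11%) in CK mice. The CKp25 mice all lay above the CK mice at 2 weeks, as did 13.2% of the tested genes in their profiles. At 6 weeks the mice overlapped in share and not in profile, where 6.48% of the tested genes lay apart in that direction. Counted at an FPKM of 10 or more, the difference in share at 2 weeks was 2.41 percentage points, against 5.46 at an FPKM of 1 or more. Permuting the mice exactly (2-sided) gave p = 0.1 at 2 weeks, the smallest possible with 3 against 3 mice, and p = 0.114 at 6 weeks (0.61 each after adjustment over 32 tests).

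In a fit of 21275 genes without the filter on low values, Cxcr4 was higher in CKp25 mice by 0.20 ± 0.05 at 2 weeks and by 0.12 ± 0.05 at 6 weeks (limma, adjusted p = 0.0220 and 0.285), where 2.1% and 1.52% of these genes were called higher. The 2-week value rests on 14 CKp25 wells and 1 CK well of 255 and 281. Of the 14, 11 also held Ccrl2 (78.6%), against 52.3% of the other 241 CKp25 wells, and their median number of genes was 3384.5 against 2740. Over all groups, 27.8% of 36 wells with Cxcr4 held Ms4a7, a gene of macrophages, and 86.1% held P2ry12. The shares were 2.03% and 98.0% in 1967 wells without it, and all 36 held Tmem119. Of the 36, 14 and 10 were CKp25 wells at 2 and 6 weeks. In these groups Ms4a7 was in 4.48% and 6.38% of wells and P2ry12 in 93.8% and 93.4%. In the other groups they were in at most 2.96% and at least 98.85%. The pooled shares thus mix differences between groups with those between wells. The other genes of the list that holds Ms4a7 are not given for these wells.

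Ccr6, a receptor known from lymphocytes and dendritic cells, was found in 0 to 4 wells of each mouse. Its share averaged 2.77% ± 1.88 in CKp25 and 1.5% ± 1.77 in CK mice at 0 weeks, 1.17% ± 1.18 and 0.717% ± 0.621 at 1 week, and 1.21% ± 0.248 and 2.12% ± 1.81 at 2 weeks (SD, n = 3). At 6 weeks it was 1.11% ± 1.31 in CKp25 (SD, n = 4) and 1.87% ± 0.662 in CK mice (SD, n = 3). In shares of wells the groups overlapped at all 4 weeks, and the exact permutation tests gave p = 0.4 to 0.7.

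None of the 32 share tests over the 8 genes and 4 weeks passed after adjustment, with an adjusted p of at least 0.61. Groups of 3 mice cannot give less than p = 0.1 in this test, and 4 against 3 mice cannot give less than 0.0571. For no receptor gene (0 of 6) did the genotype difference change between successive weeks by limma, where 0.928%, 1.75% and 0.0437% of all genes were called for 1 minus 0, 2 minus 1 and 6 minus 2 weeks. For Cxcr2 at 1 minus 0 weeks the unadjusted p was 0.0128 (limma, adjusted p = 0.356). For Ccrl2 at 2 minus 1 weeks it was 0.00288 (limma, adjusted p = 0.131). The share of all genes at an unadjusted p under 0.05 is not given for these changes. In CK mice no receptor gene and 0 genes in all differed from 0 weeks at 1, 2 or 6 weeks by limma (0.0%), with 11.1%, 6.59% and 3.05% of all genes and, of the receptor genes, Cxcr2 at 1 week at an unadjusted p under 0.05. All comparisons with 0 weeks within a genotype share those 0-week mice.

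Of 16 further genes of the receptor family, 2 passed the filter and none (0 of 2) was called at any week. Of all genes, 3.57%, 6.0% and 4.42% were higher and 0.371%, 2.23% and 1.36% lower at 1, 2 and 6 weeks, so that 0 of 2 is near the share over all genes. Ackr3, an atypical CXCL12 receptor, was found in 178 wells (8.89%), and Xcr1, a dendritic cell receptor, in 145 (7.24%). The remaining 14 were found in 1 to 46 wells. Among them were Cxcr3 and Ccr7, receptors of T cells and migrating dendritic cells, in 7 and 3 wells.

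Ligand genes of the 8 receptors, by contrast, were often called higher in CKp25 cells. Of 20 such genes, 8 passed the filter. At 0 weeks 0 of the 8 were called, and at 1, 2 and 6 weeks 4, 6 and 6 were higher, against 3.57%, 6.0% and 4.42% of all genes, and 0 were lower. Their median difference was 0.40, 1.43, 2.39 and 1.95 at 0, 1, 2 and 6 weeks, beside 0.03, 0.05, -0.00 and -0.02 over all genes. The list was chosen with earlier results of these data known, and is no independent evidence of its direction.

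Ccl3 and Ccl4, ligands of Ccr1 and its relatives, were higher by 4.52 ± 0.53 and 4.998 ± 0.69 at 2 weeks (limma, adjusted p = 3.31e-08 and 2.87e-06). The share of wells with Ccl3 averaged 75.9% ± 6.10 in CKp25 and 27.7% ± 9.84 in CK mice, and that with Ccl4 79.9% ± 2.95 in CKp25 and 32.3% ± 14.0 in CK mice (SD, n = 3). Ccl12 and Ccl2, ligands of Ccr2, were higher by 2.95 ± 0.48 and 1.82 ± 0.39 at 2 weeks (limma, adjusted p = 2.49e-05 and 0.00112). Wells with Ccl12 made up 56.5% ± 6.06 in CKp25 and 25.2% ± 5.64 in CK mice (SD, n = 3). Ccl12 was also called at 1 and 6 weeks, at 2.55 ± 0.48 and 2.25 ± 0.45 (limma, adjusted p = 0.000452 and 0.00065), whereas Ccl2 at 6 weeks was at 0.23 ± 0.36 (adjusted p = 0.836).

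Mif, a cytokine that binds Cxcr2 and Cxcr4, was higher by 2.00 ± 0.41, 3.59 ± 0.41 and 1.31 ± 0.39 at 1, 2 and 6 weeks (limma, adjusted p = 0.0014, 1.96e-08 and 0.0318). Pseudogene copies of Mif exist in the mouse genome, so its values are uncertain. At 2 weeks the wells with Mif averaged 62.7% ± 3.30 in CKp25 and 20.3% ± 5.44 in CK mice (SD, n = 3). Ccl5, a ligand of Ccr1, was called at 6 weeks, at 3.13 ± 0.66 (limma, adjusted p = 0.00509). Its shares of wells were then 42.4% ± 15.5 in CKp25 (SD, n = 4) and 10.3% ± 9.45 in CK mice (SD, n = 3). At 2 weeks they were 41.22% ± 16.98 in CKp25 and 25.76% ± 10.99 in CK mice (SD, n = 3). That difference of 1.812 ± 0.7042 did not pass (limma, adjusted p = 0.137). At 0 weeks the shares were 0.3922% in CKp25 and 0.3831% in CK mice, and at 1 week 3.466% and 1.773%. Ccl5 was thus found in more wells at 2 than at 0 weeks in both genotypes. Ccl6 was higher at 6 weeks by 1.66 ± 0.48 and Ccl9 at 2 weeks by 1.37 ± 0.41 (limma, adjusted p = 0.0277 and 0.0249). Ccr1 and Ccr2, receptors of several of these ligands, passed at no week.

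**Figure D5:**
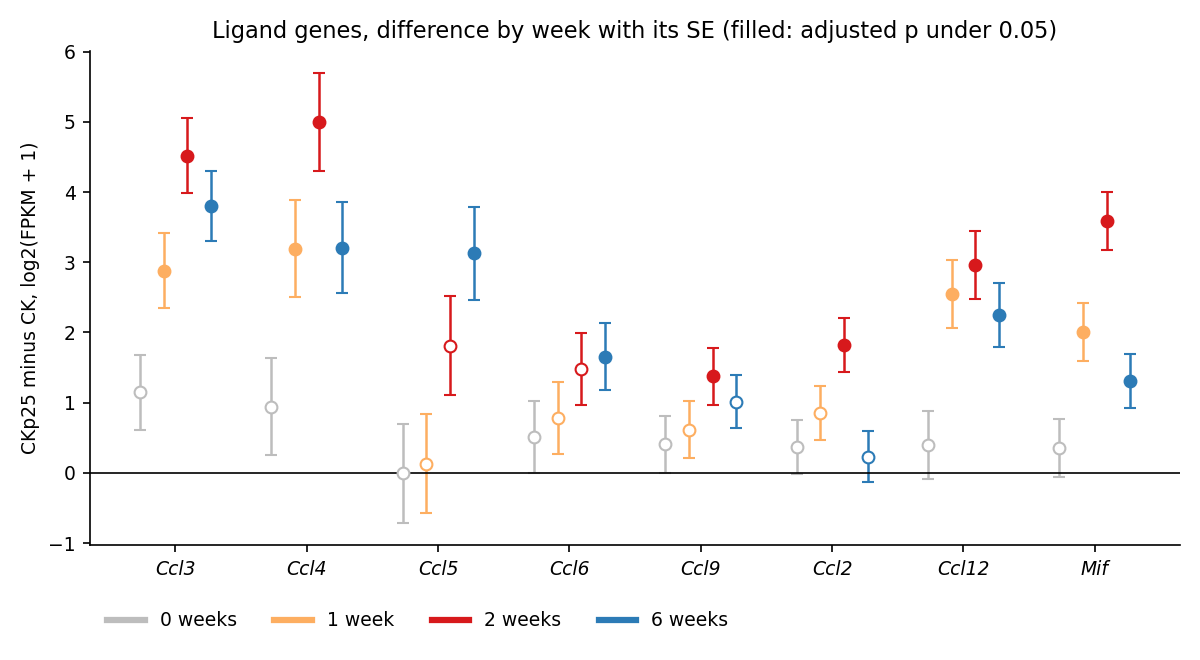
Difference between CKp25 and CK mice (y axis, CKp25 minus CK in mean log2(FPKM + 1), with its standard error from limma) for the 8 tested ligand genes of the receptors (x axis) at 0, 1, 2 and 6 weeks (colours). Filled points passed an adjusted p of 0.05, with Ccl4 highest at 2 weeks (4.998).

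Of 26 genes that carry the receptors' signal inside the cell, 23 passed the filter. At 0 and 1 weeks 0 were called. At 2 weeks 2 of 23 were higher and 2 lower, against 6.0% and 2.23% of all genes, and at 6 weeks 0 were higher and 1 lower, against 4.42% and 1.36%. The median difference of the list was -0.01, 0.10, -0.33 and -0.31 at 0, 1, 2 and 6 weeks, beside 0.03, 0.05, -0.00 and -0.02 over all genes. Gng5 and Gng12, gamma subunits of G proteins, were higher by 2.87 ± 0.57 and 1.08 ± 0.33 at 2 weeks (limma, adjusted p = 0.000502 and 0.0309). Pik3cg, the catalytic subunit of the phosphoinositide 3-kinase that G proteins turn on, was at -1.78 ± 0.43 at 2 weeks (adjusted p = 0.00499, limma), in 63.4% ± 5.74 of CKp25 and 86.0% ± 4.23 of CK wells (SD, n = 3). Elmo1, which activates the GTPase Rac together with Dock2 in moving cells, was at -2.18 ± 0.48 at 2 weeks and -2.01 ± 0.45 at 6 weeks (limma, adjusted p = 0.00188 and 0.00251).

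Over the profiles of the 25 mice, the genes most like each receptor gene were named by Pearson's r, as a description. The points are 25 mice of 8 groups, and differences between the groups enter r. Cx3cr1 was most like Zfhx3 (r = 0.973), 4632428N05Rik (0.956) and Cst3 (0.954). Ccrl2 was most like Lgals3bp (r = 0.92), Cd83 (0.907) and Gpr65 (0.9). Cxcr2 was most like Cd53 (r = 0.884), Arid1a (0.878) and Mycbp2 (0.872), and Cmklr1 was most like Glul (r = 0.814), Zfp36l1 (0.791) and Wnk1 (0.777). For the rare genes Ccr2 and Ccr1 no r exceeded 0.645 and 0.571, reached with Rnf215 and D630045J12Rik.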

How the data were processed

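A modified Smart-seq2 protocol was used on 2208 wells of 25 mice, with hippocampal cells sorted by CD11b and CD45. The deposited table gives FPKM for 23951 genes, made by the authors. Per the submitters' processing notes, Cufflinks 2.2 and the build mm9 were used. Aligner version, annotation and strand setting stay unstated, as they were not given in these sources. FPKM keep no read counts, so depth per value is unknown beyond the submitters' median of 251353 mapped reads per cell for 2183 libraries, 25 fewer than the wells. No source used here states what the 25 first wells hold. Of all values 90.0% were 0, and 0 was read only as listed at 0.

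Wells in which 1000 or more genes reached an FPKM of 1 were kept, first wells left out. Doublets were not called and cells were not clustered. From the deposited FPKM a log2 value with a pseudocount of 1 was computed per well and averaged per mouse, which understates changes of low genes. A gene was tested (9162 were) when it reached an FPKM of 1 in 10% or more of the kept wells of 3 or more mice, and Ccr1 and Ccr2 passed through 5 and 3 mice. limma 3.58.1 (trend and robust) in R 4.3.3 was fitted to all 25 mice in 8 groups without covariates, 2-sided, with Benjamini-Hochberg adjustment over all tested genes at 0.05. Shares were compared by exact permutation of mice, adjusted over 32 tests. Python 3.11.15, numpy 2.4.6, pandas 2.3.3 and scipy 1.17.1 did the rest, and the fit was tested on simulated data. The 38 alternatives are summarised in the closing section.

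Receptors, marker lists and the lists of ligands, signalling genes and further receptors were chosen with earlier results of these data known. Named genes were the 8 receptors, list members past the threshold or among the 3 smallest p of a list and comparison, the markers, and the 3 genes with the highest r to each tested receptor. 1 further receptor gene and 2 marker genes of these lists are not reported here.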

Additional observations from a re-analysis of the deposited data

Results flagged for a closer look

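In CKp25 mice at 6 weeks, mouse 3 stood apart in Cx3cr1, with a mean log2(FPKM + 1) of 8.138, against 8.84, 8.794 and 8.887 in CKp25 mice 1, 2 and 4. Its gap to the nearest mouse was 0.876 of the range of the 4 mice, above Dixon's critical value for 4 mice. Of 15 such sets of 4 values (a receptor gene as level or share of wells in these mice) 1 passed this limit, and chance gives about 1 in 20.

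The first wells of the mice, which entered only the alternative setting with first wells included, also held Ccrl2. Of 32 sets (8 receptor genes at 4 weeks), all CKp25 first wells lay above all CK first wells in 2, both of Ccrl2. At 1 week they had 32.24, 32.02 and 78.35 FPKM in CKp25 mice 1 to 3 and 0, 14.7 and 20.67 FPKM in CK mice 1 to 3, so that the lowest CKp25 value of 32.02 lay above the highest CK value. At 2 weeks they had 512.9, 225.5 and 88.35 FPKM in CKp25 mice and 0, 46.52 and 26.15 FPKM in CK mice, and the lowest CKp25 value was 88.35. The 0 values of CK mouse 1 at 1 and 2 weeks and the 512.9 FPKM of CKp25 mouse 1 at 2 weeks came from first wells with 2898, 2201 and 2248 genes, fewer than in the other first wells of these weeks. At 0 weeks the first wells overlapped, with 19.31, 25.77 and 3.343 FPKM in CKp25 mice and 49.55, 21.39 and 9.077 FPKM in CK mice. They also overlapped at 6 weeks, with 0, 72.94, 67.28 and 95.77 FPKM in CKp25 mice and 22.34, 23.61 and 11.78 FPKM in CK mice. The count above covers only CKp25 above CK. In the other direction, all CKp25 first wells lay below all CK first wells for Cx3cr1 at 2 and 6 weeks and for Cxcr2 at 1 week. For Cx3cr1 the highest CKp25 and lowest CK values were 750.7 and 758.3 FPKM at 2 weeks and 770.6 and 1026 FPKM at 6 weeks. For Cxcr2 they were 8.808 and 10.68 FPKM. The share of all genes that lay apart in first wells was not computed. With 1 well per mouse, these differences were not tested.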

How the results depend on the processing

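Of the 38 alternatives, 36 refit limma, 25 of them with 1 mouse left out, and 2 count a gene as found above an FPKM of 0 or at 10 or more. The calls of Ccrl2 at 2 and 6 weeks, of Cx3cr1 at 2 weeks and of Cxcr2 at 1 week held with first wells included, a pseudocount of 0.1, no gene filter, quantile normalization, rescaling without Rn45s and small RNA genes, and without wells of another type (chosen after seeing the data). The causes of the changes below were not tested. FPKM keep no read counts, so how far depth limits a value is unknown, and rare receptors rest on few wells.

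Of all genes, 327, 550 and 405 were called higher and 34, 204 and 125 lower in CKp25 than in CK mice at 1, 2 and 6 weeks. With at least 2000 genes per well, 125 and 310 were lower at 2 and 6 weeks. With no minimum, 207, 312 and 199 were higher at 1, 2 and 6 weeks and 20 lower at 1 week. With the log2 of mean FPKM, 83 were higher and 7 lower at 1 week and 174 higher at 2 weeks, and the median of all genes stood at -0.168, -0.35 and -0.167 at 1, 2 and 6 weeks. With no gene filter, 2 were higher and 3 lower at 0 weeks and 81 lower at 6 weeks. Quantile normalization gave 112, 329 and 348 lower at 1, 2 and 6 weeks, and rescaling 220 lower at 6 weeks. Only the weeks compared gave 170 higher and 8 lower at 1 week. A pseudocount of 0.1 put the median of all genes at 0.117 at 1 week. With 1 mouse left out the counts ranged over 182 to 432 higher and 7 to 44 lower at 1 week, 349 to 642 and 94 to 237 at 2 weeks, and 283 to 488 and 53 to 222 at 6 weeks.

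Of the receptor genes, calls were lost for Cxcr2 at 1 week with at least 2000 genes, the log2 of mean FPKM and only the weeks compared (0 genes lower under the last 2), for Cx3cr1 at 2 weeks and Ccrl2 at 6 weeks with no minimum (0 lower and 0 higher), and for Ccrl2 at 2 and 6 weeks with the log2 of mean FPKM (0 higher). With at least 2000 genes Cx3cr1 passed at 1 week, with quantile normalization at 6 weeks (1 lower), and with no gene filter Cxcr4 at 2 weeks (2 receptor genes higher). Against 0 weeks in CKp25 mice, the receptor genes lower at 2 weeks numbered 1, but 0 with no minimum and 2 with quantile normalization, and those lower at 6 weeks numbered 0, but 1 with at least 2000 genes, the log2 of mean FPKM, quantile normalization or rescaling. With no gene filter 2 were higher at 2 weeks, and with only the weeks compared 1 was higher at 1 week. With 1 mouse left out, 0 to 1 were lower at 1 week, 0 to 1 were called for the difference at 2 minus 1 weeks (Ccrl2, without CK mouse 2 or CKp25 mouse 3 of 2 weeks), 0 to 1 were lower at 2 against 0 weeks in CKp25 mice (0 without CKp25 mouse 1 of 0 weeks) and 0 to 1 at 6 against 0 weeks (1 without CK mouse 2 or 3 of 2 weeks or CK mouse 1 of 6 weeks).

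Differences that were not called changed sign in places. With at least 2000 genes, those at 0 weeks were 0.0807 for Ccrl2, 0.0085 for Cx3cr1 and 0.20 for Cxcr2. Cmklr1 at 6 weeks was 0.17 with at least 2000 genes, 0.085 with a pseudocount of 0.1, 0.027 with quantile normalization and 0.0037 without wells of another type. With the log2 of mean FPKM, Ccr2 at 1 week was 0.25 and Ccr1 at 2 weeks -0.20. With 1 mouse left out, Ccrl2, Cx3cr1 and Cxcr2 at 0 weeks ranged over -0.37 to 0.0067, -0.22 to 0.084 and -0.27 to 0.29, Ccr1 at 1 and 2 weeks over -0.53 to 0.079 and -0.096 to 0.22, and Cmklr1 at 6 weeks over -0.79 to 0.61.

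Of 160 differences in shares of wells under 5 settings, 10 moved by more than 1 SD between mice: 5 of Cx3cr1, 2 of Ccr6, Ccrl2 at 6 weeks at 19.5 points with no minimum and 41.2 with at least 2000 genes, against 27.5, and Cxcr4 at 2 weeks at 2.41 points at an FPKM of 10 or more, against 5.46.

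Mouse numbers are shared between groups, and the labels do not say that they pair the mice. Over 12 same-numbered pairs within a week the deviations from the group means had r between -0.126 and 0.343, above 0.1 in 8 pairs, and 16 of 24 mice correlated best with their own number, which is a hint from the data and not from the design. Deviations cancel out within a group, so these values are not independent, and no rate expected by chance is given. With the replicate number as a block, 363, 607 and 344 genes were higher and 38, 228 and 129 lower at 1, 2 and 6 weeks, and no count of called receptor genes moved.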
